A study of Homo sapiens with 3 samples.

Results

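Proteins that mark cytokine mRNAs for decay, or shield them from it, were followed in THP-1 macrophages through 9 genes: ZFP36, ZFP36L1, ZFP36L2, ZC3H12A, ZC3H12C, ZC3H12D, RC3H1, RC3H2 and ELAVL1. Their probes were found on the arrays by gene name among transcript probes, without use of any measured value. The genes themselves were chosen with earlier results of these data known. The array design held 15 probes for them, of 58201 transcript probes under 43317 gene names. Every one of the 9 genes had at least 1 probe.

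THP-1 cells are a line grown from a human monocytic leukemia, and all cells measured here had been turned into macrophage-like cells with the phorbol ester PMA at 100 ng/ml for 24 to 36 h. The 3 groups were macrophages without further treatment (Ctrl), macrophages activated through toll-like receptors with imiquimod (IMQ), and macrophages that received DMD ahead of the same activator (IMQ+DMD). DMD is a benzenoid from the mushroom Antrodia cinnamomea. The comparison of IMQ+DMD with IMQ asks how macrophages given DMD before the activator differ from those given the activator alone. No array had DMD without IMQ. Each group was measured on 1 one-color array, labeled with the time of 4 h, and the 3 arrays lay on 1 slide. The label of the IMQ+DMD array writes X for the second agent. Since DMD is the only further compound that the title and treatment text of the series mention, X was taken to be DMD. The labels give no dose of IMQ or DMD, and the general methods of the study describe a longer IMQ exposure than 4 h. The study text calls the experiment RNA sequencing, whereas the values are fluorescence intensities of labeled RNA bound to probes of 60 bases. The cells come from 1 line, so no donor or culture replicate stands behind any group.

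Many cytokine mRNAs are short lived because their 3′ ends carry AU-rich elements or small stem-loops. ZFP36 (tristetraprolin) and its relatives ZFP36L1 and ZFP36L2 bind AU-rich elements and bring in the CCR4-NOT complex, which removes the poly(A) tail. ZC3H12A (Regnase-1), ZC3H12C and ZC3H12D carry an RNase domain, and ZC3H12A cuts stem-loops in mRNAs such as that of IL6. RC3H1 and RC3H2 (Roquin-1 and Roquin-2) bind stem-loops and recruit deadenylases, while ELAVL1 (HuR) binds AU-rich elements and is known mostly for stabilizing mRNAs. In macrophages several of these genes are switched on by the same stimuli that induce cytokines, which makes them a feedback on the response.

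The values are the authors' quantile-normalized intensities, given either as such or as log2, and a difference is the log2 value of one array minus that of another. A gene or probe was said to have risen or fallen only where it differed by at least 2-fold, which is a log2 difference of 1. There was 1 array per group, so no difference has a replicate check and no p-value was computed. The spread that can be measured is technical: 300 probes carried 10 spots each, and the SD between these spots at the brightness of a probe gave the technical SD of its difference. This SD covers noise within an array and not the variation between cultures. The scanner software rated all 15 member probes well above background on all 3 arrays, with 0 saturated and 0 outlier-marked spots. Over the whole design, 66.6% to 72.0% of the probes per array were well above background. Of 11 macrophage and monocyte markers, 9 were found on the array and all 9 were well above background on every array, among them CSF1R, TYROBP, SPI1 and CD14. Their summed normalized intensity was 687580 in Ctrl, 564360 in IMQ and 548750 in IMQ+DMD, and the part of this shift in the results below was not tested. The epithelial markers EPCAM and CDH1 were not above background on any array. In Ctrl, however, 4 of 4 T cell markers and 4 of 4 B cell markers were. So were 2 of 4 neutrophil, 3 of 4 keratinocyte and 3 of 4 fibroblast markers, so the background rating did not separate cell types here. In RNA from whole cultures, fewer cells of a type and less RNA per cell cannot be told apart.

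After IMQ, 3 of the 9 genes rose: ZC3H12A 6.82-fold, ZC3H12C 3.32-fold and ZFP36 2.50-fold. No member probe fell. Thus 3 of 15 probes were at least 2-fold higher, beside 4.19% of the 42360 probes compared, and 0 were at least 2-fold lower, beside 3.38%. Since the genes were chosen with earlier results of these data known, these shares are no test of the set. The median difference of the 15 probes was 0.07, next to 0.0014 over all probes. The 3 genes that rose come from the ZFP36 family and the ZC3H12 family, and both families also held members that did not.

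**Figure D1:**
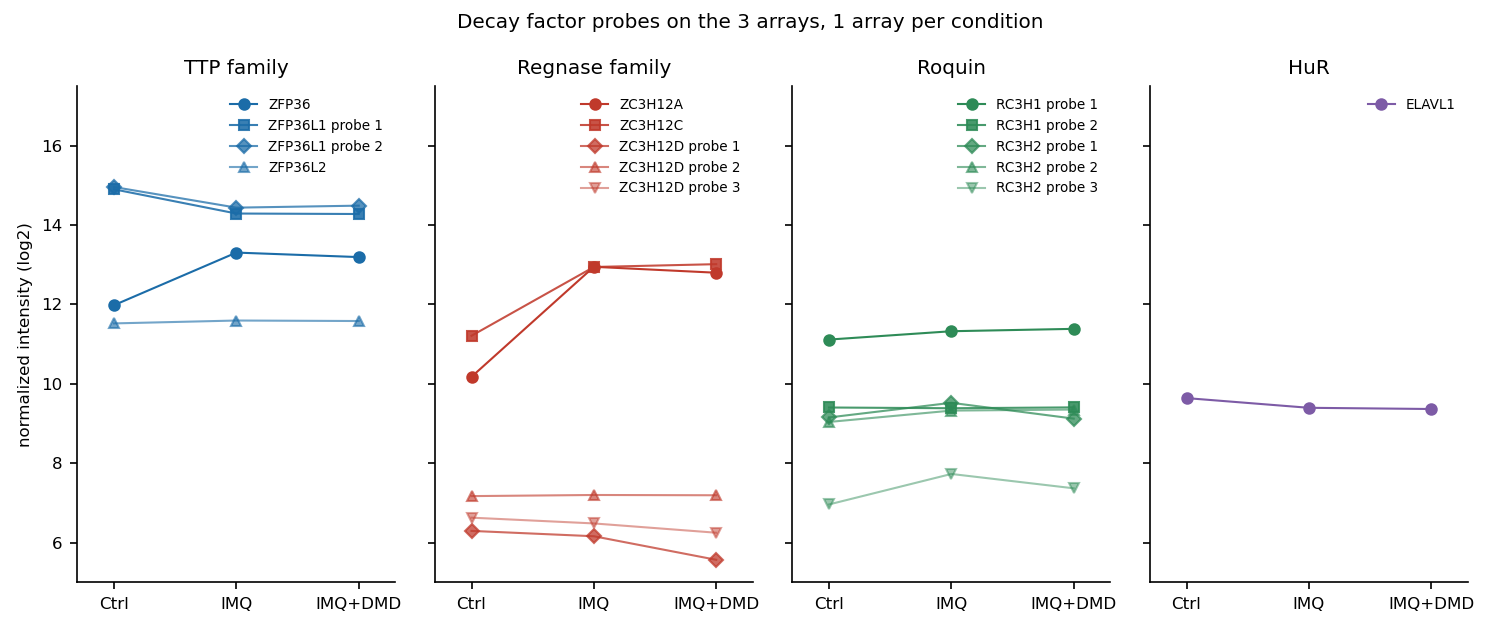
Normalized intensity (log2) of the 15 probes of the decay factors on the Ctrl, IMQ and IMQ+DMD arrays, with 1 array per group and 1 line per probe in 4 panels by family. The lines of ZFP36, ZC3H12A and ZC3H12C climb from Ctrl to IMQ and stay up in IMQ+DMD; heights of different probes cannot be compared with each other.

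In IMQ+DMD macrophages these genes stayed near their IMQ level. Of the 15 probes, 0 exceeded IMQ by 2-fold or more, beside 1.06% of the 42005 probes compared, and 0 were at least 2-fold lower, beside 1.27%. The median difference of the member probes was -0.01, and that of all probes was -0.02. The largest difference in size among them was that of a dim ZC3H12D probe, -0.59, and 88.5% of all probes compared differed by no more than that in either direction. A share of 0 in so small a group lies close to the background and is no result about these genes alone. Against Ctrl, the IMQ+DMD array again had 3 member probes at least 2-fold higher, beside 3.09% of all probes, and 0 lower, beside 4.91%. That comparison shares an array with each of the others and is not independent of them.

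**Figure D2:**
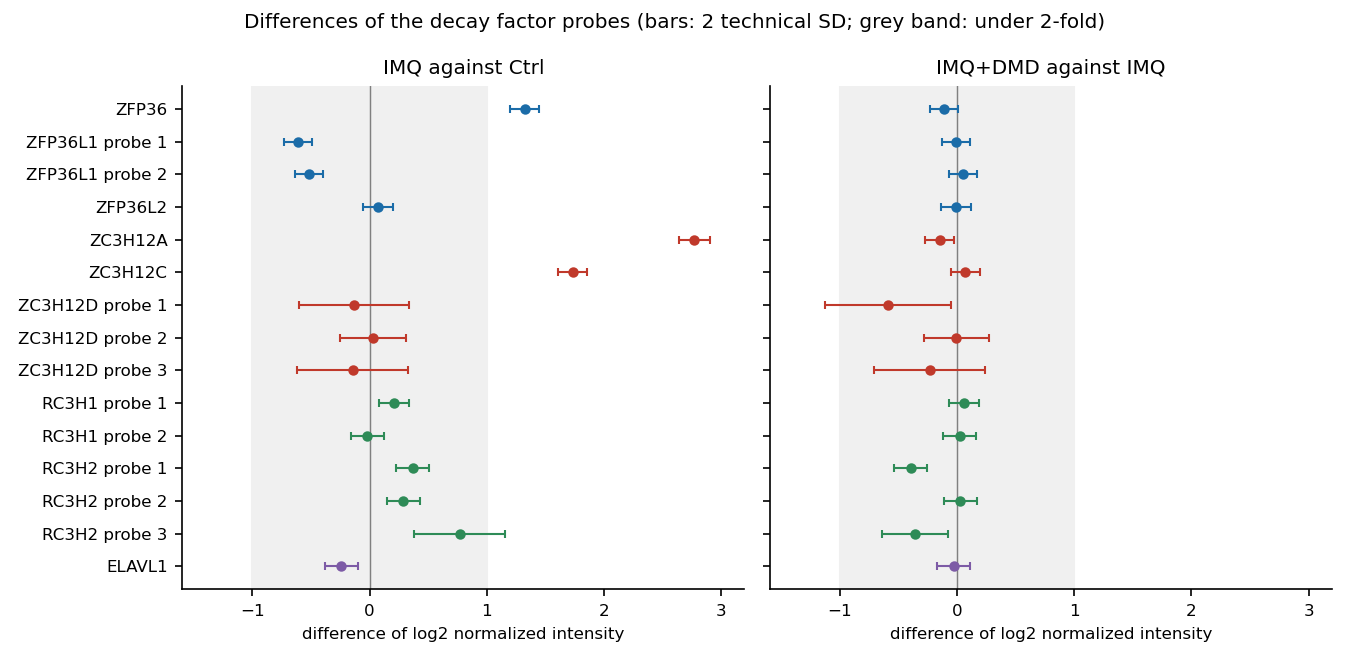
Difference of log2 normalized intensity for each of the 15 probes, IMQ against Ctrl on the left and IMQ+DMD against IMQ on the right. Bars span 2 technical SD to each side, and only ZFP36, ZC3H12A and ZC3H12C on the left lie outside the grey band of changes under 2-fold.

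ZC3H12A, the endonuclease Regnase-1, had the largest rise of the family. Its single probe (chr1:37949708-37949767, build hg19) read 1158 in Ctrl, 7898 in IMQ and 7122 in IMQ+DMD. The Ctrl array was thus far below the other two, which lay close together. The rise after IMQ was 2.77 on the log2 scale with a technical SD of 0.07, rank 146 from the highest among 42360 probes. IMQ+DMD differed from IMQ by -0.15 with a technical SD of 0.06, so that 94.6% of the log2 rise was left. Over the settings run that difference lay between -0.34 and -0.10, so the share left depended on the scaling. The 3 spots were no more uneven than their peers: on each array between 28.8% and 39.5% of the spots of similar brightness had more even pixels.

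ZC3H12C, the related RNase Regnase-3, followed the same course. Its probe (chr11:110042213-110042272, build hg19) read 2370 in Ctrl, 7874 in IMQ and 8269 in IMQ+DMD. The difference of IMQ from Ctrl was 1.73 with a technical SD of 0.06, rank 542 from the highest. IMQ+DMD stood 0.07 above IMQ, about the technical SD of 0.06, and 104% of the log2 rise was left. Over the settings run that difference changed sign, from -0.13 to 0.12, so the share left depended on the scaling. The spots of this probe were more uneven than 94.9%, 93.7% and 87.4% of the spots of similar brightness in Ctrl, IMQ and IMQ+DMD, and the part of this in the values was not tested.

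ZC3H12D, another RNase of the family known mainly from lymphocytes, gave low intensities and did not move with its relatives. Probe 1 (chr6:149783014-149783073, build hg19) read 78.6 in Ctrl, 71.6 in IMQ and 47.5 in IMQ+DMD. Probe 2 read 144, 147 and 146 on the same arrays, and probe 3 read 99.1, 89.6 and 76.2. In these normalized values probes 1 and 3 were lowest in IMQ+DMD, while probe 2 was level across the arrays. The IMQ minus Ctrl differences of the probes ran from -0.15 to 0.03, all within 2 technical SD, but from -0.90 to -0.67 with spike-in scaling. Under that scaling the median of the probes above background on all arrays was itself -0.64. Set against IMQ, the IMQ+DMD array gave -0.59, -0.01 and -0.23 with technical SDs of 0.27, 0.14 and 0.24. With spike-in scaling these became -0.09, 0.39 and 0.24, so that the order of the arrays on these dim probes depended on the scaling. For the same comparison and scaling the median of the probes above background on all arrays was itself 0.22. In the authors' values probe 1 had the lowest difference of any member probe for that comparison, and its sequence, which belongs to the coding part of the RNase domain, is shown for that reason, 5′ to 3′ and with no part in capitals:
ZC3H12D probe 1: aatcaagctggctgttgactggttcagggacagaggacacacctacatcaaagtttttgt

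ZFP36, the founding member of the tristetraprolin family, rose less than the pair of RNases. Its probe (chr19:39899758-39899817, build hg19) read 4042 in Ctrl, 10123 in IMQ and 9358 in IMQ+DMD. Both IMQ arrays lay well above the Ctrl array and near each other. The difference of IMQ from Ctrl was 1.32 with a technical SD of 0.06, rank 993 from the highest, and IMQ+DMD differed from IMQ by -0.11 with a technical SD of 0.06. Of the log2 rise, 91.4% was left with DMD. Over the settings run the difference from IMQ lay between -0.32 and -0.07, so that share depended on the scaling. The call of a rise depended on it too. The difference of IMQ from Ctrl was 0.98 without normalization between arrays and 0.83 with scaling to spike-in controls, which is under 2-fold. Under those scalings the median difference of the 37613 probes well above background on all arrays was itself -0.49 and -0.64. ZFP36, ZC3H12A and ZC3H12C were each read from 1 probe with 1 spot per array, so that no second probe checks them. The ZFP36 spots were more uneven than 79.2%, 79.7% and 60.2% of the spots of similar brightness in Ctrl, IMQ and IMQ+DMD.

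**Figure D3:**
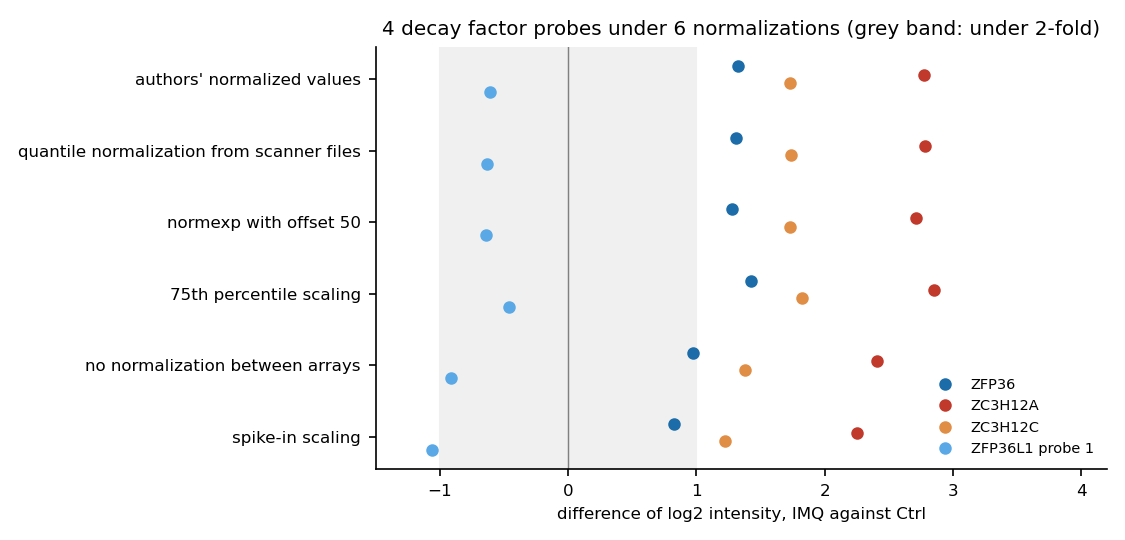
Difference of IMQ from Ctrl on the log2 scale for ZFP36, ZC3H12A, ZC3H12C and ZFP36L1 probe 1, with the authors' normalized values and 5 other normalizations. ZC3H12A (2.25 to 2.85) and ZC3H12C (1.23 to 1.83) lie past 2-fold in all 6, while ZFP36 (0.83 to 1.42) enters the grey band in the bottom 2.

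ZFP36L1 pointed the other way without reaching 2-fold in the authors' values. Probe 1 (chr14:69254476-69254535, build hg19) read 30550 in Ctrl, 20014 in IMQ and 19849 in IMQ+DMD. Probe 2 (chr14:69255354-69255413) read 31780, 22180 and 22966. On both probes the Ctrl array was the highest and the arrays with IMQ were nearly equal. The spots of probe 2 were more uneven than 97.5%, 85.9% and 85.6% of the spots of similar brightness in Ctrl, IMQ and IMQ+DMD. The part of this in the values was not tested. The probes gave -0.61 and -0.52 for IMQ against Ctrl, each with a technical SD of 0.06, or 1.53-fold and 1.43-fold lower. Between IMQ+DMD and IMQ they gave -0.01 and 0.05, each within the technical SD. With spike-in scaling probe 1 stood at -1.06, past 2-fold, while the 75th percentile scaling gave -0.46. The median of the probes above background on all arrays was itself -0.64 with spike-in scaling. Some 90.5% of all probes had an IMQ minus Ctrl difference as high as that of probe 1 or higher.

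ZFP36L2 was the best measured gene of the set, since its probe (chr2:43451156-43451215, build hg19) was one of the 300 printed 10 times. It read 2941 in Ctrl, 3092 in IMQ and 3066 in IMQ+DMD, a level course over the arrays. The SD of log2 intensity over its 10 spots was 0.02 in Ctrl, 0.04 in IMQ and 0.03 in IMQ+DMD. IMQ differed from Ctrl by 0.07, and IMQ+DMD from IMQ by -0.01, with a technical SD of 0.06 for both. That SD is the one for single spots, so it overstates the technical spread of a value that rests on 10 spots. The difference of IMQ from Ctrl also depended on the scaling and lay between -0.46 and 0.14 over the settings run. The 3 tristetraprolin genes therefore read 1.32, -0.61 or -0.52, and 0.07 for the same comparison, a spread wider than the technical SDs. With 1 array per group this spread could not be tested.

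The Roquin genes stayed under 2-fold on all 5 of their probes. RC3H1 probe 1 (chr1:173900623-173900682, build hg19) read 2218 in Ctrl, 2565 in IMQ and 2674 in IMQ+DMD. RC3H1 probe 2 (chr1:173907837-173907896) read 678, 669 and 679. Both were nearly level, with differences of IMQ from Ctrl of 0.21 and -0.02 and of IMQ+DMD from IMQ of 0.06 and 0.02. RC3H2 stood somewhat higher in IMQ on each of its 3 probes. Probe 1 (chr9:125607067-125607126) read 570 in Ctrl, 736 in IMQ and 558 in IMQ+DMD, and probe 2 read 527, 642 and 654. Probe 3 (chr9:125639751-125639810) read 125, 212 and 165. IMQ was the highest array for probes 1 and 3, and the arrays with IMQ were about equal for probe 2. The differences of IMQ from Ctrl were 0.37, 0.29 and 0.77, but under spike-in scaling they were -0.19, -0.29 and 0.09. Probe 3 gave 0.24 without normalization. The median of the probes above background on all arrays was itself -0.64 with spike-in scaling and -0.49 without normalization. With DMD, compared with IMQ, the probes disagreed, at -0.40, 0.03 and -0.36, with technical SDs of 0.07, 0.07 and 0.14. With spike-in scaling the difference of probe 3 was 0.0049, where the median of the probes above background on all arrays was 0.22. In the authors' values probe 3 had the largest IMQ difference among the members that did not rise, and it lies over the CCCH zinc finger that Roquin proteins use beside their stem-loop binding domain. In its sequence, 5′ to 3′, the capitals mark the cysteine, cysteine and histidine codons of the motif:
RC3H2 probe 3: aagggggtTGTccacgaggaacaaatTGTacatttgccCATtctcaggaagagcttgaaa

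ELAVL1, the stabilizing factor HuR, was lower on both arrays with IMQ. Its probe (chr19:8028279-8028338, build hg19) read 798 in Ctrl, 674 in IMQ and 660 in IMQ+DMD. The difference of IMQ from Ctrl was -0.24 with a technical SD of 0.07, and IMQ+DMD differed from IMQ by -0.03. Its IMQ minus Ctrl difference stayed below 0 under every normalization, from -0.81 to -0.21. The values of -0.66 and -0.81 came without normalization and with spike-in scaling, where the median of all probes was itself -0.49 and -0.64. In the authors' values 72.9% of all probes had a difference as high as that of ELAVL1 or higher. Which exon or untranslated part the member probes cover was not assigned here, apart from the pair of coding probes shown.

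**Figure D4:**
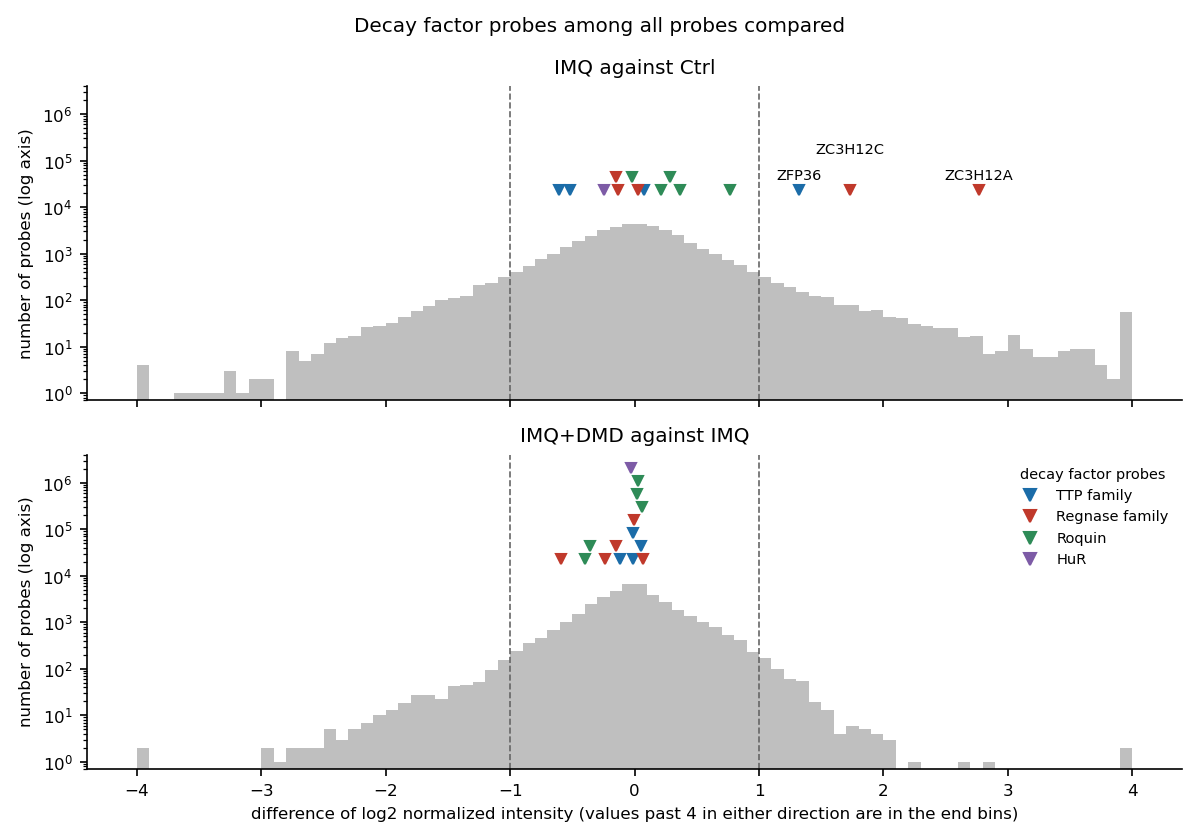
Distribution of the difference of log2 normalized intensity over all probes compared (grey, number of probes on a log axis) for IMQ against Ctrl above and IMQ+DMD against IMQ below, with dashed lines at 2-fold. Triangles mark the 15 decay factor probes by their position along the horizontal axis; 3 lie right of the upper line in the top panel and none lies outside the lines in the bottom panel.

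The genes whose course over the 3 arrays was most like that of ZFP36 and ZC3H12A were looked up among 18332 named genes detected above background on all arrays. Likeness was the Euclidean distance in the pair of log2 differences IMQ minus Ctrl and IMQ+DMD minus IMQ. SLC5A3, a myo-inositol transporter, was closest to ZFP36 at a distance of 0.01, followed by AP5B1 and ZMIZ1 at 0.02 each. ABTB2 was closest to ZC3H12A at 0.04, followed by the somatostatin receptor SSTR2 at 0.08 and the AP-1 subunit FOSL2 at 0.10. With 3 arrays the pair of differences is all that defines likeness, and many genes share such a course.

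Promoter sequence was read for 6 of the 9 genes, which have 8 windows in the RefSeq table for GRCh38.p14, each from 250 bases before to 50 after the start site. The kappa B consensus, searched on both strands, was found in the windows of ZC3H12C and RC3H2, 2 of 8, next to 11.3% of all 35116 windows. The cyclic AMP response element TGACGTCA was found in 1 of 8, a window of ZFP36L1, next to 1.85% of all. The AP-1 motif TGANTCA was in 0 of 8, next to 7.71%, and the CArG box in 0 of 8, next to 1.29%. A match describes these letters and not a bound site, and the windows are too short to speak of the genes' control. Of the 3 matches, 1 lies before a gene that rose. The stretches around them are shown 5′ to 3′ on the strand of the gene, with the matched bases in capitals:
ZC3H12C, chr11:110093142-110093194: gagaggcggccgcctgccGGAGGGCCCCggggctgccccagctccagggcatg
RC3H2, chr9:122905553-122905609: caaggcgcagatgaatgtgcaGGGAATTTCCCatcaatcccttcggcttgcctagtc
ZFP36L1, chr14:68793436-68793493: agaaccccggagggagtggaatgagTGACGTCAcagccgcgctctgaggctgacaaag
The ZC3H12C match reads as the consensus on the opposite strand, from 232 to 223 bases before the start. In RC3H2 the capitals cover 2 overlapping matches from 229 to 219 bases before the start, and in ZFP36L1 the element lies from 52 to 45 bases before it.

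In the machinery that the decay factors call on, few genes passed 2-fold. Among 19 CCR4-NOT and other deadenylation factors, 2 were at least 2-fold higher after IMQ and 0 were lower, beside 4.31% and 4.57% of the 19512 genes with a symbol. The list median was 0.04, against -0.02 over those genes. TOB1, an adaptor that links poly(A)-binding protein to the deadenylases, rose 3.42-fold, with 1835 in Ctrl, 6279 in IMQ and 5009 in IMQ+DMD. BTG2, an antiproliferative protein that binds the same nucleases, rose 2.56-fold, with 11579, 29667 and 33676, although with spike-in scaling its difference was 0.86. The catalytic and scaffold subunits of CCR4-NOT themselves stayed under 2-fold in the authors' values. With spike-in scaling, 1 gene of this list was at least 2-fold higher and 1 was lower, with a median of -0.47. Under that scaling 1.39% of all probes were higher and 23.1% lower. The median of the probes above background on all arrays was then -0.64. Of 11 decapping and 5′ decay factors and of 13 exosome genes, 0 rose and 0 fell, with medians of 0.03 and -0.12. With spike-in scaling, 1 decapping factor and 3 exosome genes were at least 2-fold lower, with medians of -0.46 and -0.66. These stand beside the same 23.1% of all probes and median of -0.64, so they follow the shift of the whole array. Without normalization 2 exosome genes were at least 2-fold lower, beside 15.6% of all probes. With 75th percentile scaling 1 decapping factor was at least 2-fold higher, beside 3.56% of all probes. The decapping cofactor DCP1A differed from Ctrl by 0.95 after IMQ on its brightest probe, while its 3 probes ran from 0.67 to 1.05. In IMQ+DMD that brightest probe was 2.01-fold above Ctrl, and it passed 2-fold in 3 of the 8 settings run.

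For IMQ+DMD against IMQ these 3 lists held 0 genes past 2-fold in either direction, beside 0.715% of the 19448 genes higher and 0.931% lower. Their medians were -0.13, -0.03 and -0.03, against -0.02 over all genes with a symbol. Among 16 other proteins that bind AU-rich elements or stem-loops, 1 was at least 2-fold higher after IMQ and 0 were lower. That lay beside 4.31% and 4.57% of the genes with a symbol, and the list median was 0.0010. With spike-in scaling 0 were higher and 2 were lower, beside 1.39% and 23.1% of all probes. The list median was then -0.51, and that of the probes above background on all arrays was -0.64. The gene that rose was CPEB4, a cytoplasmic polyadenylation element binding protein, by 2.76-fold. It read 535 in Ctrl, 1475 in IMQ and 1545 in IMQ+DMD, and its difference was 0.93 with spike-in scaling. The RNA-binding protein HNRNPAB read 3705 in Ctrl, 2502 in IMQ and 1165 in IMQ+DMD. It was 1 of 15 compared in the list for IMQ+DMD against IMQ, and the only one past 2-fold, 2.15-fold lower. Its difference from IMQ lay between -1.26 and -1.02 in the 8 settings run.

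Regulators of the decay factors moved in both directions after IMQ. Of 12 compared, 2 rose, beside 4.31% of the genes with a symbol, and 1 fell, beside 4.57%. The median was 0.29, or -0.31 with spike-in scaling and -0.16 without normalization. Under those scalings the median of the probes above background on all arrays was itself -0.64 and -0.49. DUSP1, a phosphatase that switches off the kinase p38 upstream of tristetraprolin, rose 12.5-fold, from 377 in Ctrl to 4722 in IMQ, with 3849 in IMQ+DMD. MALT1, a protease that cleaves Regnase-1 and the Roquins, rose 5.53-fold, with 62.0 in Ctrl, 343 in IMQ and 243 in IMQ+DMD. MAPKAPK3, a kinase of the pathway that phosphorylates tristetraprolin, fell 2.13-fold, with 12078, 5670 and 5906, but its difference was -0.98 with 75th percentile scaling. Of the same 12 genes, 0 passed 2-fold in either direction for IMQ+DMD against IMQ, and the median was 0.01. This lay beside 0.715% of the genes with a symbol higher and 0.931% lower, and is no result about the regulators. BCL10, the partner of MALT1, was not well above background on any array.

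**Figure D5:**
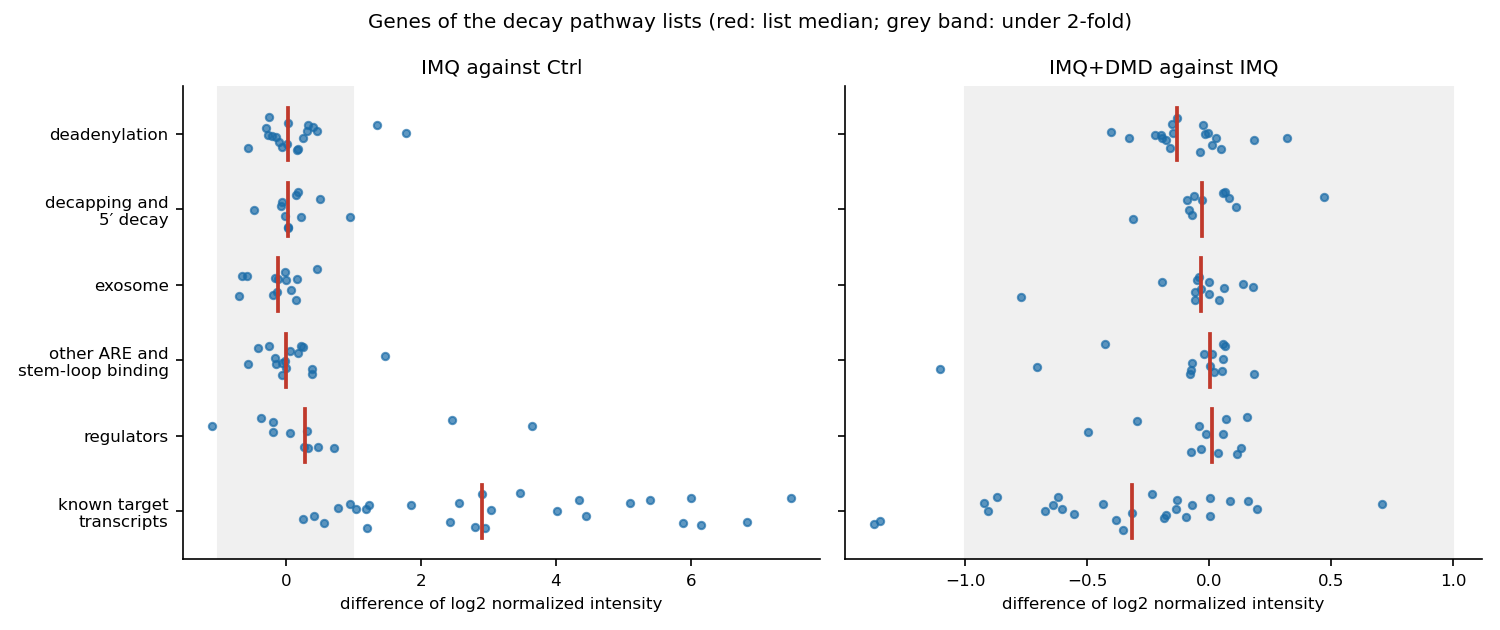
Difference of log2 normalized intensity of each gene in 6 lists around the decay factors, IMQ against Ctrl on the left and IMQ+DMD against IMQ on the right, on separate horizontal scales. Each point is 1 gene, red bars are list medians and the grey band is under 2-fold. Only the known target transcripts have a median (2.90 on the left) outside the band.

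Most transcripts known as targets of these proteins rose after IMQ. Of 27 compared, 22 were at least 2-fold higher, beside 4.31% of the genes with a symbol, and 0 were at least 2-fold lower, beside 4.57%, with a median of 2.90. The list holds cytokine and feedback transcripts and was chosen with earlier results of these data known. Its share is therefore no test of the decay factors. CSF2 counts among the 22 through a lower bound, since its Ctrl value was not well above background, and IL12B and LCN2 were not compared because they were not well above background on any array. The chemokines CXCL2, CXCL1 and CXCL8 had the largest differences, 7.48, 6.83 and 6.16. A second probe gave a smaller value for CXCL2, 6.05, and for CXCL1, 4.76. With DMD, 2 of 27 fell relative to IMQ, beside 0.931% of the genes with a symbol, and 0 rose, beside 0.715%. Some 21 of 27 were lower by any amount, and the median was -0.32. With 75th percentile scaling 4 fell, beside 0.646% of all probes. With spike-in scaling the list median was -0.16, and that of the probes above background on all arrays was 0.22. PTGS2, the inducible cyclooxygenase, read 56.7 in Ctrl, 424 in IMQ and 164 in IMQ+DMD, a fall of 2.59-fold against IMQ. CSF3, the granulocyte colony-stimulating factor, read 30.0, 612 and 240, a fall of 2.55-fold. On its second probe the difference from IMQ was -2.11.

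TNF and IL6 are named for being the best-known targets of ZFP36 and ZC3H12A, after their values had been seen. TNF read 695 in Ctrl, 7666 in IMQ and 5227 in IMQ+DMD, so that it rose by 3.46 on the log2 scale and IMQ+DMD differed from IMQ by -0.55. A second IL6 probe was not compared, since the brighter array did not measure it well above background. The IL6 probe compared read 55.1, 426 and 274, with differences of 2.95 and -0.64. For the same comparison with IMQ, ZFP36 stood at -0.11 and ZC3H12A at -0.15. These differences between genes have no replicate behind them, and no target mRNA half-life was measured.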

How the data were processed

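RNA from THP-1 macrophages was measured on 3 Agilent one-color arrays, 1 per group. The authors deposited the scanner output (Feature Extraction 10.5.1.1) with a processed intensity per spot, and a table of raw and quantile-normalized intensity per probe. Raw intensity in that table equaled the scanner value within 0.1% for 99.9% of the probes on each array. The normalized intensity was used here, converted to log2. Comparisons took probes that the brighter array of the pair measured well above background. A value below background on the other array was raised to the lowest value of the probes above background on that array. This floor was 4.04 in Ctrl, 4.57 in IMQ and 4.08 in IMQ+DMD on the log2 scale. A raised value can thus pass a dim value: ELAVL3, in the list of other binding proteins, read 18.2 in Ctrl and 4.68 in IMQ but entered as 0.39. No member probe was raised. A probe or gene counted as changed at 2-fold or more. Technical SDs came from the 300 probes with 10 spots, by log2 brightness, and were those of single spots for every probe. Genes in the lists were read from their probe with the highest mean normalized intensity. The number of arrays limits the precision, and no test was possible. The counting was tested on simulated data. Alternatives used limma 3.58.1 in R 4.3.3, and the other steps used Python 3.11.15, numpy 2.4.6 and pandas 2.3.3, with plots from matplotlib 3.10.9.

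The genes followed, the lists around them and the alternatives were chosen with earlier results of these data known. Named from each list were the 3 largest rises and 3 largest falls among genes at least 2-fold changed, and for ZFP36 and ZC3H12A the 3 closest genes. Of 13 regulators and 29 distinct target transcripts on the array, 12 and 27 were compared. Markers of T cells, B cells, neutrophils, keratinocytes and fibroblasts were listed too: 4 of 4, 4 of 4, 2 of 4, 3 of 4 and 3 of 4 were well above background in Ctrl. Their summed normalized intensities ran over the arrays from 949 to 1137, 3857 to 4733, 3297 to 3544, 17797 to 18843 and 231 to 246. Sequences come from the probe column of the scanner output and from RefSeq.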

Additional observations from a re-analysis of the deposited data

How the results depend on the processing

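The counts of decay factor probes were recomputed with scaling to the 75th percentile or to 10 spike-in probes, without any normalization between arrays, with normexp background correction with an offset of 50, with quantile normalization from the scanner output, with stricter and no handling of dim probes, and with thresholds of 1.5-fold and 4-fold. After IMQ, 3 probes stood at least 2-fold above Ctrl in all settings at that threshold except no normalization and spike-in scaling, which gave 2 each. At 4-fold the count was 1, ZC3H12A, and at 1.5-fold it was 4, with RC3H2 probe 3 added. No probe was at least 2-fold lower except 1 with spike-in scaling, ZFP36L1 probe 1, and 1 at 1.5-fold, the same probe. Between IMQ+DMD and IMQ no probe was at least 2-fold higher or lower in any setting, and 1 was at least 1.5-fold lower, ZC3H12D probe 1. Against Ctrl, the IMQ+DMD array had 2 probes higher and 2 lower without normalization, and 2 higher and 1 lower with spike-in scaling, in place of 3 and 0, and 3 and 2 at 1.5-fold. Of 315 values of single probes under these settings, 44 had the other sign than the main value, all of them of probes with a main difference of at most 0.37 in size. The cause was not tested. The spike-in shift was set as a median over the spike-in probes after its values had been seen, because dim spike-in probes scatter.

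The background moved with the scaling. The shares of probes at least 2-fold higher and lower for IMQ against Ctrl were 4.19% and 3.38%, and became 3.56% and 4.51% at the 75th percentile, 1.71% and 15.6% when not normalized, and 1.39% and 23.1% when scaled to spike-ins. The shares for IMQ+DMD against IMQ were 1.06% and 1.27%, and in the same order became 3.08% and 0.646%, 3.97% and 0.549%, and 7.40% and 0.353%. The median of the probes above background on all arrays moved to -0.49 and -0.64 for IMQ against Ctrl under the last 2 scalings, and to 0.22 for IMQ+DMD against IMQ with spike-in scaling. Of 96 list medians under other settings 22 had the other sign, and of 240 list counts 23 moved by over 1.5 times. The medians of the known targets were 2.03 to 2.90 for IMQ against Ctrl. No paired analysis was possible because each group has 1 array. No p-value exists for any of these values, and no replicate could be left out.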
